A study of Drosophila melanogaster with 20 samples.

Results

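Among 15473 transcripts measured in Drosophila melanogaster wings, 91 (0.588%) were lower in wings expressing activated Thickveins than in control wings both in the wandering larva and in the pupa. They were chosen on quantile-normalized log2 intensities by 3 conditions. The mean of the Tkv wings had to lie at least 0.5 below the mean of the control wings in larvae, the same had to hold in pupae, and Tkv had to lie below control in each of the 5 pairs of arrays with the same replicate number at each stage. The values of the 2 Tkv comparisons therefore made the choice, and they are given below as a description. The mirrored conditions gave 77 transcripts that were higher with Tkv at both stages.

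The arrays fell into 4 groups of 5: Tkv wings of wandering 3rd instar larvae, control wings of the same stage, Tkv wings 24 h after pupa formation, and control wings of that age. Each array carried total RNA of 10 dissected wings labelled with Cy3. Tkv wings expressed activated thickveins from a UAS transgene under Gal4, and controls came from a matched strain without the UAS transgene. All animals grew at 18 °C and spent the last 10 h before dissection at 28 °C, so the controls had the temperature shift too. The labels do not name the Gal4 driver or the part of the wing in which it is active. Effects of the transgene and of anything else in which the strains differ cannot be told apart, and in whole wings fewer cells of a type cannot be told apart from less RNA per cell.

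Thickveins is a type I receptor for Decapentaplegic, the fly's main BMP-family ligand. The active receptor phosphorylates the transcription factor Mad, which enters the nucleus with Medea, activates some targets and, together with Schnurri, silences others, the best known being the repressor gene brinker. In the larval wing disc the pathway controls growth and the position of pattern elements along the anterior-posterior axis, and in the pupal wing it promotes vein formation. Which of these genes are among the 91 transcripts is not given here: the files carry FlyBase transcript IDs without gene names, and the RefSeq gene table used holds 44 of the 15473 IDs and 0 of the 91. The lists of pathway genes and of cell type markers were therefore not counted, and the labelled tissue and the transgene were not checked against named genes. Transcripts are called by their IDs, and no sequence is shown.

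Each transcript was read by 3 to 5 probe pairs, 5 for 68.1% of the 91 transcripts and for 65.3% of all transcripts. Deposited array medians lay between 9.19 and 9.59 (log2 intensity) before the further normalization. The file names carry a number that was read as the slide, which the sample labels do not state. By this reading the 20 arrays came from 5 slides with 4 arrays each, 1 per group. Arrays of the same replicate number then shared a slide.

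The group's median fraction of the control level was about the same at both stages. The choice used the same limit at both stages, which bears on this likeness. The median difference of Tkv from control wings was -0.97 in larvae and -0.95 in pupae (log2 intensity), which is 51.2% and 51.7% of the control intensity. In larval wings the differences ran from -4.34 to -0.51 with the middle 50% between -1.33 and -0.68, and in pupal wings from -5.11 to -0.51 with the middle 50% between -1.37 and -0.71. At least 2-fold lower levels were found for 42 transcripts in larval wings, for 43 in pupal wings and for 29 at both stages. The deep differences were fewer in pupae as measured, with 14 transcripts at least 4-fold lower in larvae, 7 in pupae and 6 at both. Some of the 14 had pupal Tkv levels near the low end of the scale, where the true distance may be larger than measured. How far this limits the pupal count was not tested.

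**Figure D1:**
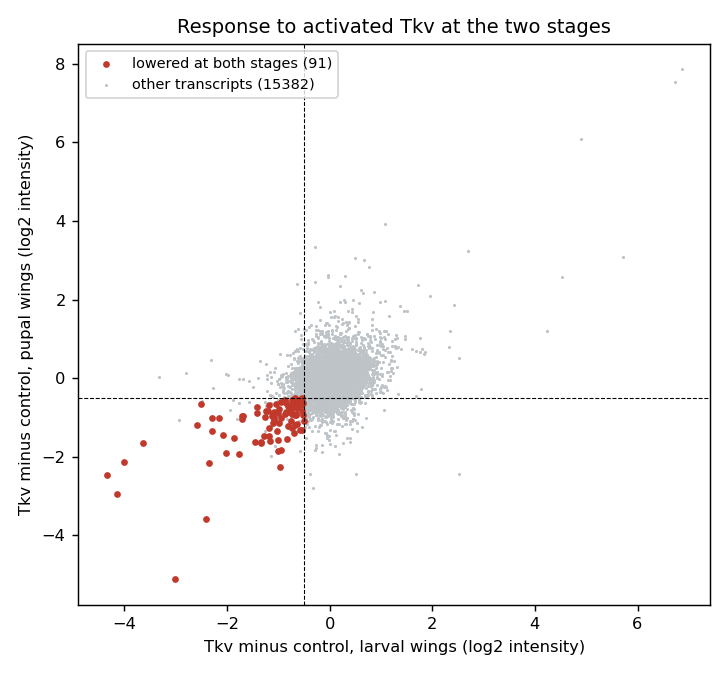
Each point is a transcript, with the mean difference of Tkv from control wings in larvae on the horizontal axis and in pupae on the vertical axis (log2 intensity, 5 arrays per group). The 91 transcripts lowered at both stages lie left of and below the dashed lines at -0.5 and reach -4.34 in larvae and -5.11 in pupae.

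At the edge of the larval condition, FBtr0089352 was inside with a difference of -0.509 and FBtr0073986 outside with -0.492. At the edge of the pupal condition, FBtr0089791 was inside with -0.507 and FBtr0070763 outside with -0.497. The condition on single pairs removed 66 of the 157 transcripts whose means met both limits.

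Tested with limma over all transcripts, 56 of the 91 passed as lower in larval wings, where 0.666% of all transcripts did, and 69 passed in pupal wings, where 1.54% did. At both stages 49 passed, against 0.349% of all transcripts, and 15 passed at neither stage. Because these comparisons chose the members, the counts only say how many of the 91 stand on an adjusted p under 0.05. Without replicate 3 the pupal count was 45, and with the pupal arrays alone it was 49. All 5 Tkv arrays lay below all 5 control arrays for 69 of the 91 in larval wings (1.67% of all transcripts), for 62 in pupal wings (2.22%) and for 48 at both stages (0.401%). For 21 of the 91, every one of the 10 Tkv arrays lay below every one of the 10 control arrays whatever the stage, as for 26 of all 15473 transcripts (0.168%).

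**Figure D2:**
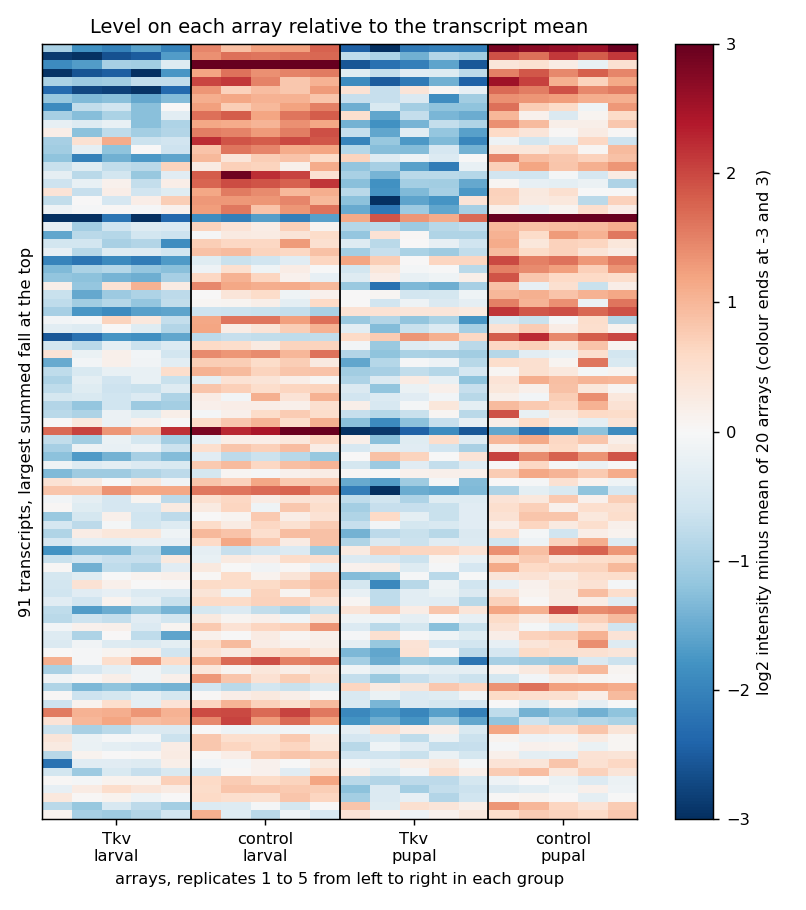
Each row is one of the 91 transcripts and each column an array, with colour giving the log2 intensity minus the transcript's mean over the 20 arrays (blue below, red above, colour ending at -3 and 3). The 2 Tkv blocks are bluer than the control block to their right. Some rows differ more between the larval and pupal blocks than between genotypes, such as FBtr0076304, whose group means ran from 7.15 to 13.29. In 13 rows the pupal Tkv mean was above the larval control mean. In 17 rows the larval Tkv mean was above the pupal control mean.

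The 2 transcripts with the largest larval difference were FBtr0079839 and FBtr0086025. FBtr0079839 had log2 intensities of 5.17, 5.37, 6.05, 6.004 and 6.66 on the larval Tkv arrays of replicates 1 to 5, against 10.09, 10.17, 10.29, 10.29 and 10.11 on the larval control arrays. In pupal wings it had 4.48, 4.81, 4.99, 5.47 and 4.499 with Tkv, against 7.42, 7.51, 7.26, 6.83 and 7.51 in controls. The groups did not overlap at either stage. In control wings its pupal minus larval difference was -2.88. The mean difference was -4.34 in larvae (20.2-fold) and -2.45 in pupae. The larval Tkv values, 5.17 to 6.66, were low on the scale too, so the larval fold is one of measured intensities. No pupal fold is given, because the pupal Tkv values lay close to the lowest intensities of the arrays (3.61 in log2 before the further normalization), and the 2 differences are not ranked.

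FBtr0086025 had 6.21, 6.11, 6.46, 6.57 and 7.39 on the larval Tkv arrays, against 10.44, 10.73, 10.68, 10.76 and 10.80 on the larval control arrays. The pupal arrays gave 8.31, 8.15, 7.62, 8.19 and 8.02 with Tkv, against 10.99, 10.73, 11.20, 10.90 and 11.20 in controls. Its control levels were alike at the 2 stages (means of 10.68 and 11.00), while the Tkv level was higher in pupae than in larvae. The difference was -4.14 in larvae (17.6-fold) and -2.94 in pupae (7.70-fold).

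The 2 transcripts with the largest pupal difference were FBtr0088213 and FBtr0078413. FBtr0088213 had 7.28, 6.45, 6.23, 6.62 and 6.24 on the larval Tkv arrays, against 9.71, 9.15, 9.49, 9.48 and 10.02 on the larval control arrays. At the pupal stage the values were 5.81, 5.13, 6.10, 6.205 and 6.19 with Tkv, against 11.11, 10.97, 10.88, 10.84 and 11.22 in controls. No Tkv array overlapped with a control array, and the distance was -3.01 in larvae (8.04-fold) and -5.11 in pupae (34.6-fold). This change of the response from larva to pupa was the most negative in the group. Its pupal Tkv values, 5.13 to 6.205, lay low on the scale, where the true distance may be larger than measured. In control wings its level was 1.43 higher in pupae than in larvae, whereas in Tkv wings the pupal minus larval difference was -0.67.

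FBtr0078413 had 9.68, 9.54, 9.58, 9.90 and 9.88 on the larval Tkv arrays, against 12.64, 12.74, 12.12, 11.44 and 11.68 on the larval control arrays. Pupal wings had 8.74, 8.13, 8.52, 9.19 and 8.20 with Tkv, against 13.17, 12.68, 11.71, 11.29 and 11.77 in controls. Tkv and control arrays did not overlap, but the controls spread widely, with replicates 1 and 2 highest at both stages (SD of 0.57 in larvae and 0.77 in pupae, n = 5 each). Its difference was -2.41 in larvae (5.30-fold) and -3.57 in pupae (11.9-fold).

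FBtr0078233 showed the opposite shift to FBtr0088213. It had 5.03, 4.64, 4.56, 4.42 and 5.03 on the larval Tkv arrays, against 8.70, 8.06, 8.30, 8.19 and 8.64 on the larval control arrays. In pupal wings it had 7.80, 6.68, 7.77, 7.44 and 7.13 with Tkv, against 9.08, 8.91, 9.28, 8.81 and 8.94 in controls. The groups stayed apart at both stages, with a difference of -3.64 in larvae and -1.64 in pupae (3.12-fold), the most positive pupal minus larval difference of measured responses in the group (2.001). The larval Tkv values lay close to the lowest intensities of the arrays, where the true distance may be larger than measured, so no larval fold is given.

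The 2 brightest transcripts in controls were FBtr0082286 and FBtr0082124. FBtr0082286 had 11.93, 11.75, 11.83, 11.56 and 11.79 on the larval Tkv arrays, against 14.17, 14.24, 14.11, 14.14 and 13.92 on the larval control arrays. The pupal arrays gave 12.39, 12.38, 12.65, 11.22 and 12.04 with Tkv, against 14.45, 14.41, 14.34, 14.16 and 14.15 in controls. It was bright on all 20 arrays, with differences of -2.35 in larvae (5.08-fold) and -2.17 in pupae (4.49-fold). FBtr0082124 averaged 11.77 ± 0.20 in larval Tkv wings and 12.77 ± 0.29 in larval control wings, then 12.88 ± 0.08 in pupal Tkv wings and 13.76 ± 0.19 in pupal control wings (SD, n = 5 each).

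**Figure D3:**
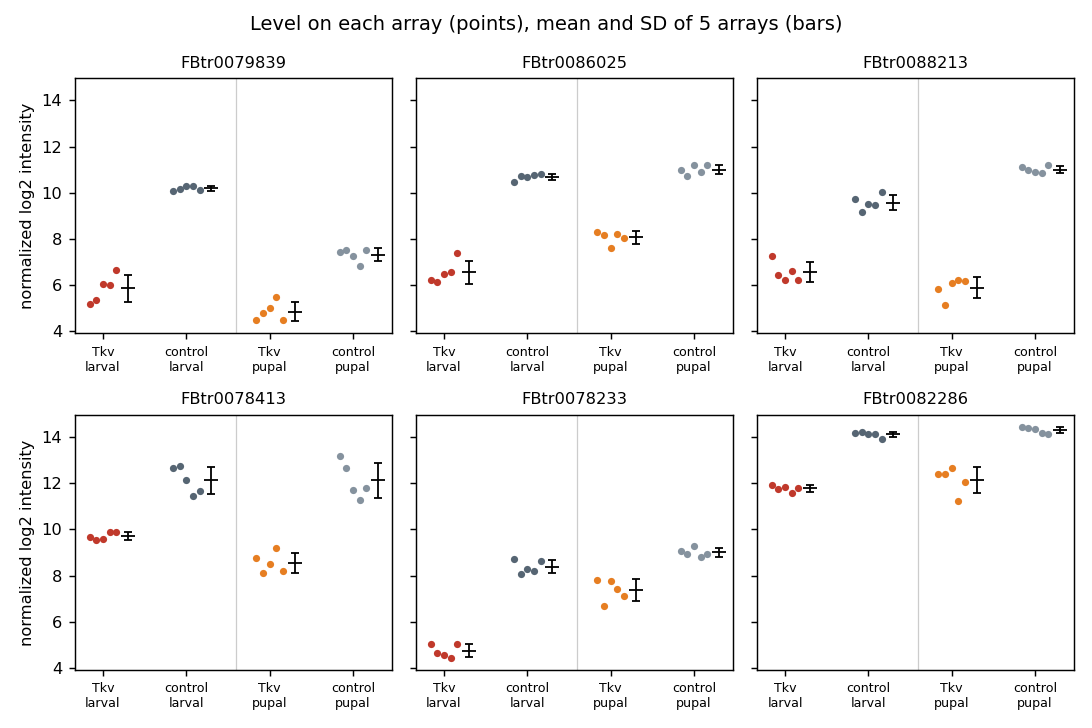
Normalized log2 intensity of 6 transcripts on each array (points, replicates 1 to 5 from left to right) with the mean and SD of each group of 5 (bars), Tkv left of control at each stage. Tkv and control points do not overlap in any of the 12 pairs of groups, and FBtr0082286 keeps pupal Tkv values of 11.22 to 12.65 while FBtr0079839 goes down to 4.48.

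A sixth transcript at least 4-fold lower at both stages, FBtr0084544, was singled out after its values were seen. It had 6.14, 6.48, 6.59, 6.07 and 7.33 on the larval Tkv arrays, against 10.27, 10.71, 10.44, 10.56 and 10.64 on the larval control arrays. At the pupal stage the values were 8.71, 8.37, 8.73, 8.70 and 8.29 with Tkv, against 10.59, 10.93, 10.51, 10.88 and 10.53 in controls. It had the form of FBtr0086025, with alike control levels at the 2 stages and a Tkv level that was lower in larvae.

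The size of the difference was set side by side for the 2 stages. Of the 91 transcripts, 48 had the larger difference in larvae and 43 in pupae, and the median of the pupal minus larval difference was 0.01. The 2 values lay within 0.25 of each other for 42 transcripts and within 0.5 for 62. As measured, exceptions were mostly on the larval side. The larval difference was larger by over 1 for 8 transcripts and the pupal one for 3. Of these 8, FBtr0079839, FBtr0077689 and FBtr0088061 had mean pupal Tkv levels of 4.85, 5.05 and 5.04, near the low end of the scale. Their mean pupal control levels were 7.31, 5.72 and 6.05, each lower than in larval controls. The others of the 8 had pupal Tkv levels of 6.98 to 8.59. Among these, FBtr0078233 had a mean larval Tkv level of 4.74. How far low levels limit the differences at either stage was not tested. As both responses chose the members, their difference was not tested.

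Normalized intensities gathered around a dim and a bright level, and the density between them was lowest at 8.68 (log2). Transcripts above it are called bright and those below it dim. Transcripts of the group were found on both sides. In larval wings the median level was 7.77 with Tkv and 9.07 in controls, and in pupal wings 7.86 with Tkv and 8.81 in controls, while the median over all transcripts lay between 9.37 and 9.39 in the 4 groups. In larval wings 28 of the 91 were bright on all 5 Tkv arrays and 46 on all 5 control arrays, in pupal wings 27 and 42. The shares in controls, 50.5% in larvae and 46.2% in pupae, compare with 51.8% and 51.4% of all transcripts. The shares with Tkv, 30.8% in larvae and 29.7% in pupae, compare with 51.5% and 51.2%. The choice of transcripts lower with Tkv bears on these shares.

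Dim on every Tkv array and bright on every control array were 10 of the 91 transcripts in larval wings (0.0905% of all transcripts) and 5 in pupal wings (0.0711%). This held at both stages for 2 (0.0129% of all), FBtr0086025 and FBtr0088213, and it rests on the differences that chose the members. On all 20 arrays 21 transcripts were bright and 25 dim, and these 2 counts were not set against all transcripts. The 21 bright ones had median differences of -0.69 in larvae and -0.88 in pupae, the 25 dim ones -1.03 at both stages, and the 45 others -1.09 and -0.95. No detection calls or negative controls were used, so how far background limits the differences of the dim transcripts was not tested.

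The spread within the groups differed from that of all transcripts more with Tkv than in controls. In larval wings the median SD of the 91 transcripts was 0.337 with Tkv and 0.234 in controls, against 0.262 and 0.230 over all transcripts. In pupal wings it was 0.341 with Tkv and 0.294 in controls, against 0.275 and 0.259 over all transcripts. These SDs were not tested, and the Tkv levels of the group are also the dimmer ones.

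Over the replicate numbers, the median difference of the 91 transcripts lay between -1.08 in replicate 2 and -0.84 in replicate 3 in larval wings, and between -1.20 in replicate 2 and -0.87 in replicate 4 in pupal wings. Replicate 2 gave the largest median at both stages. That every number gave a negative median follows from the condition on pairs.

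Arrays that played no part in a choice gave a measure of how far such a response recurs. The same conditions were applied to 4 replicate numbers at a time, which chose 96 to 109 transcripts, and these were then read on the arrays of the number left out. There, 78.9% to 94.8% of the chosen transcripts were lower with Tkv at both stages, against 21.7% to 29.7% of all transcripts. Both differences again reached -0.5 for 48.6% to 58.3% of the chosen transcripts, against 1.79% to 3.87% of all. The median difference on the left-out arrays was -1.04 to -0.76 in larvae and -0.90 to -0.71 in pupae. On the arrays used for choosing it was -0.95 to -0.89 in larvae and -0.997 to -0.88 in pupae, so the larval medians were as large on the new arrays in 3 of the 5 rounds and the pupal ones in 1. The 5 rounds share arrays and are not independent of each other.

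**Figure D4:**
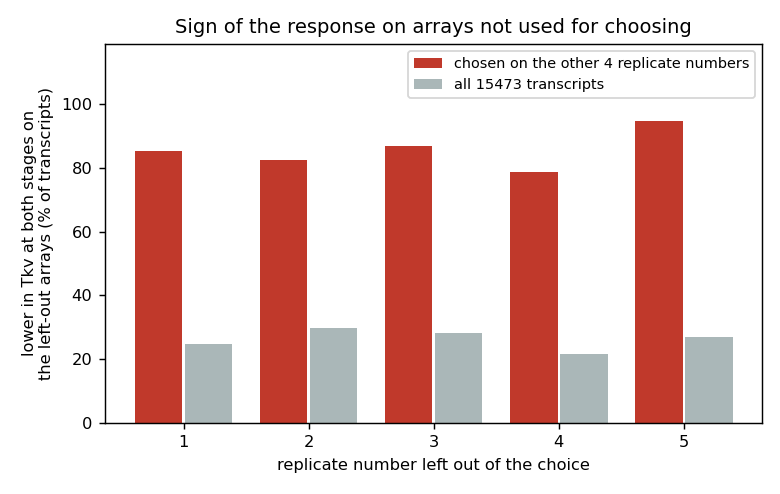
Bars give the percentage of transcripts that were lower with Tkv at both stages on the arrays of one replicate number, for transcripts chosen on the other 4 numbers (red) and for all 15473 (grey). The red bars stand at 78.9% to 94.8% and the grey ones at 21.7% to 29.7%.

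The change from larva to pupa, averaged over Tkv and control wings, was the comparison that the choice did not use: with equal groups it is orthogonal to both Tkv differences. By limma over all transcripts, 30 of the 91 (33.0%) rose and 36 (39.6%) fell toward the pupal stage, as did 24.4% and 27.2% of all transcripts. Together 72.5% of the group passed, where 51.5% of all transcripts did, and 25 did not pass. The median size of the stage effect was 0.69 in the group and 0.33 over all transcripts (log2), and the median signed effect was -0.19 against -0.04. Changes of at least 2-fold that passed the test were upward for 13 (14.3%) and downward for 16 (17.6%), against 8.62% and 8.10% of all transcripts, and 10 passed with at least 4-fold, against 6.39% of all. The shares of the group exceed the background in both directions, a description that was not tested as a property of the group. Of the 66 transcripts that passed, 61 kept 1 sign in each of the 5 replicate numbers. The 77 transcripts raised by Tkv at both stages had 24 (31.2%) higher and 27 (35.1%) lower in pupal wings, so the shares are close in the 2 groups.

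**Figure D5:**
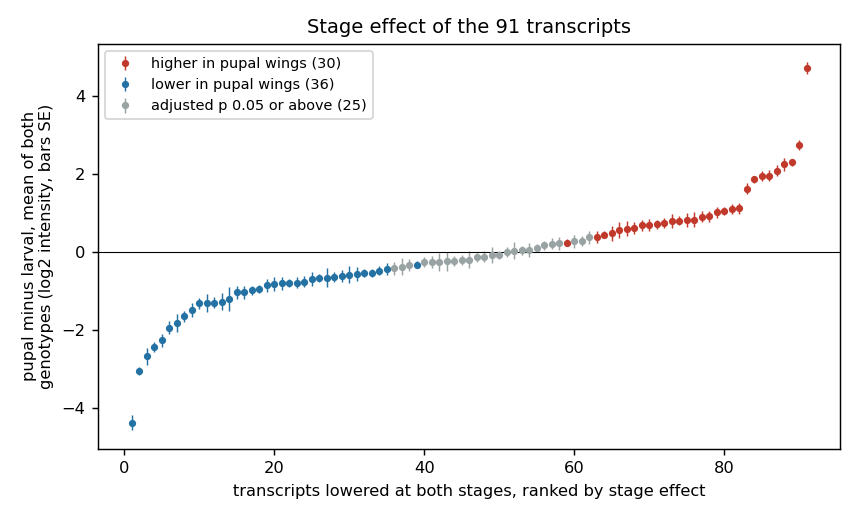
Points are the 91 transcripts ranked by the pupal minus larval difference averaged over Tkv and control wings (log2 intensity, bars are SE from limma). Red marks the 30 that passed as higher in pupal wings, blue the 36 that passed as lower and grey the 25 with an adjusted p of 0.05 or above, and the effects run from -4.38 to 4.71.

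FBtr0076304 rose most from larva to pupa. On the pupal Tkv arrays it had 11.15, 11.90, 11.34, 11.13 and 11.71, and on the larval Tkv arrays 6.70, 6.77, 7.83, 6.80 and 7.65. In control wings it had 13.07, 13.46, 13.30, 13.36 and 13.26 in pupae, and 8.14, 7.95, 8.35, 7.95 and 8.39 in larvae. The stages did not overlap in either genotype. The averaged stage effect was 4.71 ± 0.15 (log2, SE, a 26.2-fold rise, limma adjusted p = 9.44e-16). The pupal minus larval difference was 4.29 in Tkv wings and 5.13 in controls.

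FBtr0081823 rose next, by 2.73 ± 0.13 (6.65-fold, limma adjusted p = 3.23e-13). It averaged 10.29 ± 0.31 in pupal Tkv wings and 7.42 ± 0.39 in larval Tkv wings, and 11.28 ± 0.29 in pupal control wings and 8.68 ± 0.04 in larval control wings (SD, n = 5 each). The rise was similar in the genotypes, 2.87 in Tkv wings and 2.60 in controls.

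FBtr0080276 fell most. On the pupal Tkv arrays it had 4.47, 5.01, 5.48, 6.03 and 5.36, and on the larval Tkv arrays 9.60, 9.94, 9.24, 8.85 and 10.09. In control wings it had 6.35, 5.69, 6.12, 6.67 and 6.03 in pupae, and 10.74, 10.16, 10.37, 10.87 and 11.08 in larvae. The stages were far apart, with an averaged effect of -4.38 ± 0.20 (log2, SE, limma adjusted p = 1.88e-13). Tkv and control arrays of the pupal stage did overlap for this transcript, near the low end of the scale. Its difference between genotypes was -1.10 in larvae and -0.90 in pupae. It passed as lower with Tkv at neither stage (limma adjusted p = 0.058 and 0.090).

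FBtr0088030 changed by -3.05 ± 0.10 (8.31-fold lower in pupae, limma adjusted p = 1.61e-15). It averaged 6.82 ± 0.16 in pupal Tkv wings and 9.89 ± 0.22 in larval Tkv wings, and 7.48 ± 0.28 in pupal control wings and 10.52 ± 0.19 in larval control wings (SD, n = 5 each). Its distance between genotypes was small and alike at both stages, -0.64 in larvae and -0.65 in pupae.

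The stage difference had the same sign in Tkv and control wings for 78 of the 91 transcripts (85.7%) and for 63 of the 66 that passed (95.5%), against 81.7% of all transcripts and 99.5% of all that passed. Of the 13 with opposite signs, 1 was over 0.5 in size in both genotypes, FBtr0088213. The median stage difference was -0.18 in Tkv wings and -0.09 in control wings. The 30 transcripts that rose had a median of 8.63 in pupal Tkv wings and 7.53 in larval Tkv wings, against 10.21 and 8.91 in controls. The 36 that fell had 6.85 in pupal Tkv wings and 7.89 in larval Tkv wings, against 7.70 and 9.27 in controls.

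The difference between genotypes was of like size in the 3 stage classes. All 3 classes were chosen with the same limits on this difference, so the likeness is a description. In larval wings the median was -0.97 for the transcripts that rose, -1.05 for those that fell and -0.96 for those that did not pass. In pupal wings the medians were -0.95, -0.91 and -1.03. The transcripts that fell with stage had the larger Tkv difference in larvae in 21 of 36 cases, and those that rose in 15 of 30.

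Across the 4 groups, both Tkv means lay below both control means for 61 of the 91 transcripts. For 13 the pupal Tkv mean was above the larval control mean, and for 17 the larval Tkv mean was above the pupal control mean, so for these the difference between stages exceeded that between genotypes. The lowest of the 4 means was that of larval Tkv wings for 40 transcripts and of pupal Tkv wings for 51. The highest was that of larval controls for 48 and of pupal controls for 43. The conditions allow only a Tkv mean to be the lowest and a control mean to be the highest. They bear on the count of 61 too, which was not set against all transcripts.

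Of the 91 transcripts, 10 carry IDs that follow each other directly, in 4 runs. The files and the gene table do not say whether such neighbours belong to 1 gene or share probes, so they may not be separate observations. The run FBtr0086759, FBtr0086760 and FBtr0086761, chosen after its values were seen, had pupal differences of -2.25, -1.90 and -1.94 and larval differences of -0.97, -2.02 and -1.77. Over the 20 arrays, the deviations from the group means of neighbours within runs correlated at 0.17 to 0.63 (6 pairs), while the median over all 4095 pairs of the 91 transcripts was 0.02. These are Pearson values that share the arrays. Counting each run once leaves 85 transcripts, of which 27 were higher and 34 lower in pupal wings.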

How the data were processed

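The authors deposited an intensity per transcript and array, made with RMA per the submitters' processing notes. RMA corrects for background, normalizes arrays and summarizes the probes of a transcript. Its version was not given in the sources used here, nor was the genome build. Log2 values in the deposited series table matched these intensities within 5.0e-09 after taking log2. A deposited error column of unstated unit was only checked for zeros, and no value of the 91 transcripts was 0 there. No depth applies to arrays, and their number limits the precision.

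Intensities were put on the log2 scale and quantile-normalized over the 20 arrays, with no filter. limma 3.58.1 in R 4.3.3 fitted 4 group means (16 residual degrees of freedom, eBayes, two-sided, Benjamini-Hochberg over 15473 transcripts, adjusted p under 0.05). It was also run on simulated data with independent noise and planted changes. Those data held no likeness between arrays of the same number, so the run does not cover that. Groups and replicate numbers came from the titles, and the presumed slides from a number in the file names. The labels say that samples were isolated independently and no more about the animals, so p-values reflect spread among these 20 samples. Deviations of same-numbered arrays of different groups correlated at -0.19 to 0.29 (median 0.07), over 0.1 in 13 of 30 pairs. Arrays of unlike numbers had a median of -0.03. For 12 of the 20 arrays the closest array of another group had the same number, so arrays of the same number were slightly more alike. The number was not used as a block in the tests reported, and counts with it as a block are given at the end. Figures used matplotlib 3.10.9.

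The members and lists were chosen with earlier results of these data known. Transcripts named by a set list are those with the 2 largest larval and the 2 largest pupal differences. The list adds the 2 largest rises and falls with stage, the extremes of the pupal minus larval response and the 2 brightest in controls. It also holds those at the edges of the conditions. Other transcripts given by ID fall outside this list. The boundary of 8.68 is the lowest point of a density with a bandwidth of 0.25, set after the data were seen.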

Additional observations from a re-analysis of the deposited data

Results flagged for a closer look

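Of 67 groups of 5 values examined, 2 held a value well apart from the remaining 4. Chance alone flags about 1 in 20 such groups. The median level of the 91 transcripts on the pupal Tkv arrays was lowest in replicate 2, at 7.70 (log2 intensity), with the others between 7.87 and 7.95. FBtr0073986, which lay just outside the larval condition, had 7.16 on the larval control array of replicate 3, with the other 4 control arrays between 4.66 and 5.22.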

How the results depend on the processing

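The conditions that choose the transcripts set their number: 29 with a limit of -1 in place of -0.5 and 157 without the condition on pairs. Limits of -0.4 and -0.6 gave 117 and 73, and no further normalization or median centring gave 90 and 84, of which 82 and 83 were among the 91. Leaving out a replicate number gave 96 to 109. Among the 91, leaving out a replicate number gave 42 to 45 passing as lower in larval wings and 45 to 53 in pupal wings, the lowest being 45 without replicate 3. It gave 25 to 29 higher and 32 to 37 lower in pupal wings. With the replicate number as a fixed block, 60 passed in larval and 72 in pupal wings, and 31 were higher and 37 lower with stage, so the block moved no count by over 1.5 times. The other settings tried on these counts (random block, no further normalization, median centring, no dim 25%, trend and robust fitting, the arrays of 1 stage alone) moved none by over 1.5 times. With the arrays of 1 stage alone, 49 passed in pupal wings in place of 69, and 53 in larval wings in place of 56. For the 15 transcripts named by the set list, no stage effect reversed, and 7 of 165 refits lost and 2 gained the call. Other transcripts given by ID are not part of this count. No signal over background was measured for the 25 dim transcripts.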
